A study of Rattus norvegicus with 6 samples.

Results

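The subunit genes of oxidative phosphorylation (OXPHOS) were followed in rat bone marrow mesenchymal stem cells kept in co-culture with microglia, with and without lipopolysaccharide (LPS). Members were the protein-coding genes whose symbols begin with Nduf (a, b, c, s or v and a digit), Uqcr, Cox4 to Cox8 or Atp5, the 4 Sdh genes, and the protein genes of the mitochondrial genome. The rule found 99 of the 19266 genes in the table, 86 in the nuclear and 13 in the mitochondrial genome. Of the 99, 10 carry a pseudogene name or are a second copy of another member, and their reads may be shared with the parent gene. Atp5mc1, Uqcr11 and Ndufs6 are in the table under a class other than protein-coding, so they are not members, and Ndufab1 has no digit after the family letter.

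RNA came from wild-type SCSP-402 cells, the name the labels give to the rat stem cells. All 6 libraries are from stem cells grown with BV2, a mouse microglial line, so both groups share the co-culture. LPS, a bacterial cell wall component sensed by toll-like receptor 4, was added to 1 group of 3 libraries and left out of the other 3. Its dose and duration, the layout of the co-culture and whether replicates were separate cultures are not given in the labels, so each p-value speaks of the scatter among these 6 libraries, part or all of which may be technical. In bulk RNA of this kind, fewer cells of a type and less RNA per cell cannot be told apart.

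Libraries held 77.4 to 82 M count units, or 19.3 to 20.5 M fragments at an assumed 4 units per fragment. On the first principal component, with 71.5% of the variance, untreated replicate 1 lay at -11.3, the other untreated libraries at -36.1 and -38, and the LPS libraries between 25.4 and 30.1. Ribosomal RNA took 0.0961% to 0.199% of counts in untreated libraries and 1.36%, 0.129% and 0.712% in LPS replicates 1 to 3, and its part in the results was not tested. The stromal markers were abundant (Col1a1 averaged 9680 FPKM untreated and 7520 with LPS, Thy1 238 and 280), and 5 of the 11 tested were higher with LPS and 5 lower. Of 20 microglial markers 19 were in the table and 4 passed the filter, of which Lyz2 was called, lower with LPS. Ptprc, Trem2 and C1qa stayed below 0.03 FPKM in every library. The microglial list summed to between 69.4 and 76.5 FPKM in untreated and between 75.1 and 99.9 in LPS libraries, most of it Tmem119, at 62.4 to 70.7.

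Oxidative phosphorylation passes electrons from NADH and succinate along complexes I to IV of the inner mitochondrial membrane to oxygen, and complex V, the ATP synthase, uses the resulting proton gradient to make ATP. Complexes I, III, IV and V mix subunits made in the cytosol from nuclear genes with subunits made inside the organelle from mitochondrial DNA, while complex II is nuclear alone. The mitochondrial genes are transcribed from few promoters as long precursors that are cut at tRNA genes, whereas each nuclear gene has its own promoter, often with sites for NRF1, GABPA (also called NRF2), YY1 or the estrogen-related receptors (ERR). Some subunits of complex IV have isoforms that are restricted to particular tissues or induced by low oxygen.

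The promoters of 5 genes are shown because the nuclear genes are read from separate promoters and these windows hold the motifs that were searched. Each window spans 250 bases before to 50 bases after the RefSeq start in GRCr8, read 5′ to 3′ on the gene's own strand, and capitals mark the motif. Ndufa11 (chr9:1637364-1637663, plus strand) holds a pair of overlapping NRF1 motifs, starting at -97 and -91. Atp5mc2 (chr7:135678169-135678468, minus strand) holds that motif once, at -56, where its capitals spell it out. Uqcrh (chr5:134790833-134791132, minus strand) holds the GABPA motif CCGGAAG in reverse at -83. Sdhd (chr8:59850592-59850891, minus strand) holds it in reverse at -48 and 20, with the ERR motif TCAAGGTCA in reverse at 36. Atp5mf (chr12:14535185-14535484, plus strand) holds the YY1 motif AAGATGGCG at 37.
Ndufa11: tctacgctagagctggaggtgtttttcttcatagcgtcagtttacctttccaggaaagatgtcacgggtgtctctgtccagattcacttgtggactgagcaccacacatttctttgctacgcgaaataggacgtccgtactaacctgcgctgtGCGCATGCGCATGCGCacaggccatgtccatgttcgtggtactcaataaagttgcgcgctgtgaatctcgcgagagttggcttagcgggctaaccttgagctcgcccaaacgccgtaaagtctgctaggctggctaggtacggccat
Atp5mc2: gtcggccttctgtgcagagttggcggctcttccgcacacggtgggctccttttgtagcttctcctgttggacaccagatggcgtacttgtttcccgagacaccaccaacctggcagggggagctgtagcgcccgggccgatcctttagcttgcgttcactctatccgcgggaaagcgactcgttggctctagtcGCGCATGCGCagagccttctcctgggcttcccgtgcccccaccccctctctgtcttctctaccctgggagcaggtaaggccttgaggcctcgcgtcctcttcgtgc
Uqcrh: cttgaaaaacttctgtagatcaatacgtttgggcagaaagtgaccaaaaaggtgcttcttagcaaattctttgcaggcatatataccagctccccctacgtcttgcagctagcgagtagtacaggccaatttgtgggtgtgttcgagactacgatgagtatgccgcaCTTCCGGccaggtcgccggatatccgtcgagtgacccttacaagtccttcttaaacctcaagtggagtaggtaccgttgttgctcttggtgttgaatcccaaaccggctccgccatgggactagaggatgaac
Sdhd: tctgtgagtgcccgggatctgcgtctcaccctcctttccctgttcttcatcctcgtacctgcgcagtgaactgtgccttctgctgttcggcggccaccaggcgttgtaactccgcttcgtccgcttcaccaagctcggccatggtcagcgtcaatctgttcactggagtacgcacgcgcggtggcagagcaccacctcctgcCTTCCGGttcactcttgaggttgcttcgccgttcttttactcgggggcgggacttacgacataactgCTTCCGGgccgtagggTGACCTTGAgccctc
Atp5mf: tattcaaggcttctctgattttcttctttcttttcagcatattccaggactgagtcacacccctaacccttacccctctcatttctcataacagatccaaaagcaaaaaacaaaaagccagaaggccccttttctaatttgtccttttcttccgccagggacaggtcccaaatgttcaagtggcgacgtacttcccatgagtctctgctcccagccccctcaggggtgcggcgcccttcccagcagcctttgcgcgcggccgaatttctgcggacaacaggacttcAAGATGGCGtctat

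Of 74 tested nuclear members that are not copies, 65 matched a RefSeq promoter by symbol. The GABPA motif stood in 20 of these windows (30.8%), against 19.5% of the 8688 promoters of tested genes and 8.75% of all 33469 promoters. The YY1 motif stood in 9 (13.8%), against 4.17% and 1.73%. The NRF1 motif stood in 4 (6.15%), against 2.12% and 0.852%, and the ERR motif in 2 (3.08%), against 0.207% and 0.433%. In all, 30 of the 65 windows held at least 1 of these motifs, searched on both strands. The members' shares lay above those of tested genes for all 4, with small numbers for NRF1 and ERR. The letters ACGTG or GCGTG, read by hypoxia-inducible factors, were in 37 windows (56.9%, against 63.6% of tested genes), and the E-box CACGTG, which contains ACGTG, in 4 (6.15%, against 9.88%). Members with a motif had nearly the same median log2 fold change as those without it, for example 0.20 against 0.15 for GABPA and 0.18 in both sets for NRF1. Ndufb4, Cox6a2 and Ndufa4l2, which recur below, held none of the NRF1, GABPA, YY1 or ERR letters in their windows.

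Among nuclear OXPHOS genes 25 of 81 tested were higher with LPS, most of them slightly, and among mitochondrial ones 3 of 13; the difference between the genomes was not tested. A gene was tested where its FPKM (fragments per kilobase per M fragments, a level per length) reached 1 in at least 3 of the 6 libraries, and was called where edgeR's quasi-likelihood test gave an adjusted p under 0.05 over all 11559 tested genes. Of 94 members tested, 28 were higher with LPS and 2 lower (Cox6a2 and Uqcrb). Higher calls made up 29.8% of tested members, against 20.1% of all tested genes, where lower calls made up 19.0% and calls of either kind 39.1%. The changes were small: apart from Cox4i2, the members called higher rose by 1.11-fold to 1.32-fold. Among the 87 tested members that are not copies, 4 had a log2 fold change of 0.5 or more in size, namely Cox4i2, Cox6a2, Ndufa4l2 and Atp5f1e. FPKM values did not overlap between groups in 56 members that were higher with LPS and 2 that were lower, where the shares over all tested genes were 32.8% and 20.6%, or 53.3% in either direction. The 5 untested members were Ndufa3, Cox7a1, 2 pseudogene-named genes and the second Cox6b1 copy, and the 7 tested copies had adjusted p-values from 0.183 to 0.974.

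The median log2 fold change was 0.15 over the 81 tested nuclear members, 0.061 over the 13 mitochondrial ones and 0.00012 over all tested genes. The mitochondrial median was 0.015 without LPS replicate 1, 0.031 without untreated replicate 2 and 0.10 without untreated replicate 1, and 0.016 with quantile normalization. Taken library by library against the untreated mean, the nuclear median was 0.00016, -0.023 and 0.013 in untreated replicates 1 to 3 and 0.10, 0.23 and 0.13 with LPS. The nuclear groups therefore did not overlap, with LPS replicate 2 the highest. The mitochondrial median was 0.089, -0.048 and -0.054 untreated and 0.14, -0.0048 and 0.023 with LPS, so the groups overlapped and replicate 1 was the highest of each. As a share of all counts, nuclear members took 0.389% ± 0.00173 (SD, n = 3) untreated and 0.45% ± 0.0223 with LPS, and mitochondrial members 2.65% ± 0.139 and 2.97% ± 0.14. The ratio of summed mitochondrial to summed nuclear FPKM was 9.0, 8.35 and 8.27 in untreated libraries and 8.75, 7.55 and 7.98 with LPS. Those ranges overlapped, so the balance of the genomes did not separate the groups.

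**Figure D1:**
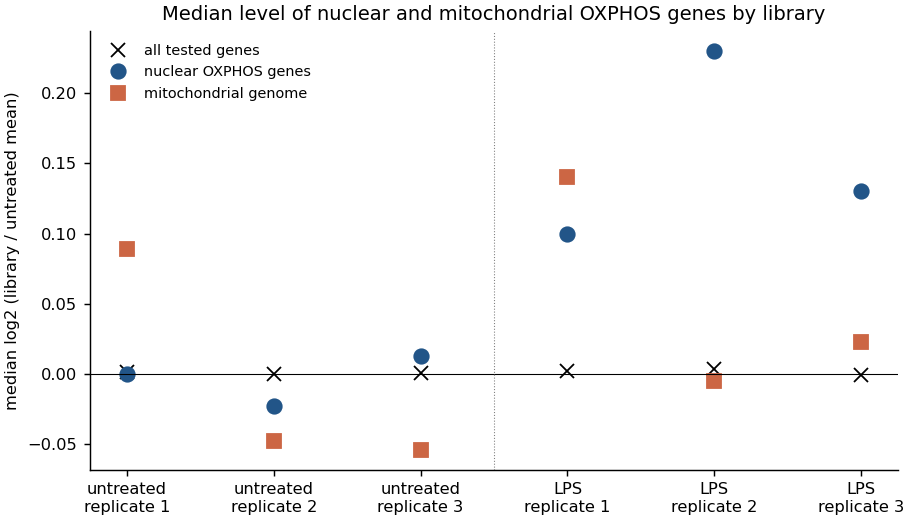
Median of log2 (library over untreated mean) for all tested genes, 81 nuclear and 13 mitochondrial OXPHOS genes, 1 point per library and set. The nuclear points lie at 0.10 to 0.23 in the LPS libraries and near 0 in the untreated ones, while the mitochondrial points of the groups overlap.

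Gene length moved with these results. Length here is what count and FPKM together imply, with a median of 1230 bases over the tested nuclear members and 3230 over all tested genes. Over all tested genes, the median log2 fold change was -0.043 up to 500 bases, 0.087 from 500 to 1000, 0.074 from 1000 to 2000, 0.016 from 2000 to 4000 and -0.059 above 4000. In the same bands the nuclear members' medians were 0.13, 0.18, 0.19, 0.11 and 0.13, above the band's median in all 5. When a smooth length trend was removed from each library, a step chosen after seeing the data, 8 members were called higher and 6 lower. The higher calls were 8.51% of tested members, against 17.3% of all tested genes, and 2481 of the 11559 tested genes were called lower. The nuclear median was then 0.063, the mitochondrial one -0.082 and that of all tested genes -0.035. Without LPS replicate 2 the members called higher numbered 13 (13.8% of tested members, against 15.3% of all tested genes), and without untreated replicate 2 they numbered 14 (14.9%, against 15.9%). In both of these fits, as with the length trend removed, the members' share was no longer above that of all tested genes. The part of length and of replicate 2 in the results was not tested.

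**Figure D2:**
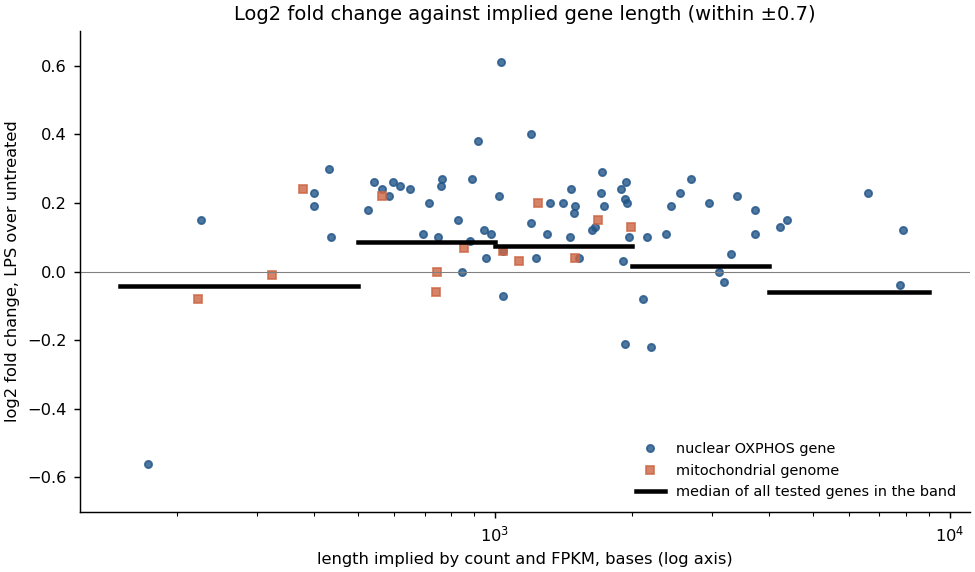
Log2 fold change of each tested member that is not a copy against its implied length on a log axis; Cox4i2 and Cox6a2 lie outside the plotted range of 0.7 either way. Black bars are medians of all tested genes in 5 length bands, from -0.059 to 0.087, and the nuclear members' median lies above the bar in all 5.

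Across all 20 alternative settings that tested them, 7 of the 30 called members stayed called: Cox4i2, Cox6a2, Ndufb4, Ndufa11, Uqcrh, Atp5f1a and Atp5f1d. On total counts without scaling factors 46 members were called higher, where 25.3% of all tested genes were. Each of the other called members lost its call in at least 1 setting.

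**Figure D3:**
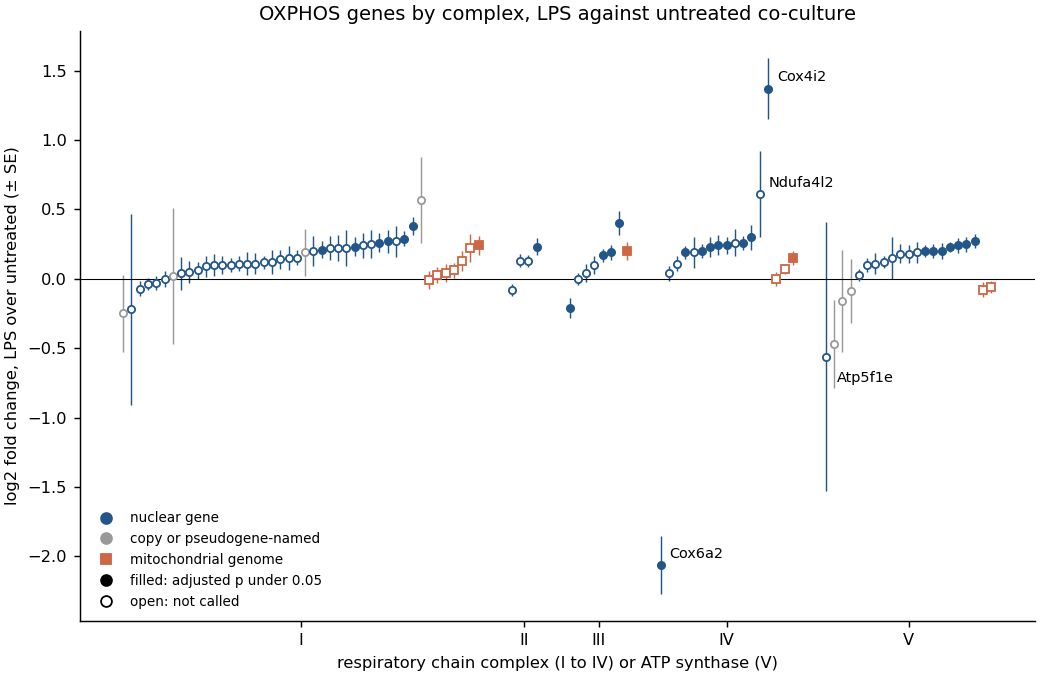
Log2 fold change with its standard error for each of the 94 tested members, ordered within each complex, with 3 libraries in each group. Of the 94 points 78 lie above 0, Cox4i2 stands at 1.37 and Cox6a2 at -2.06, and the mitochondrial genes lie between -0.08 and 0.24.

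Complex I, the NADH dehydrogenase, is the largest complex, and 6 of its 37 tested nuclear members were higher with LPS (16.2%), with a median log2 fold change of 0.12. That share is below the 20.1% of all tested genes. Of its 7 nuclear core subunits, which between them carry the flavin and the iron-sulfur clusters, Ndufs7 and Ndufs8 were called. Ndufs8 measured 16.2, 14.2 and 15.2 FPKM untreated and 17.9, 18.8 and 17.9 with LPS (log2 fold change 0.21 ± 0.062 SE, edgeR adjusted p = 0.0258). Ndufs7, at 4.2 ± 0.299 FPKM untreated and 5.08 ± 0.104 with LPS (n = 3 each), lies wholly inside the annotated span of Cirbp on the same strand, so its reads may be shared. Cirbp itself was not called, at a log2 fold change of -0.12.

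The 4 largest rises called in complex I were in accessory subunits, which surround the core. Ndufb4, an accessory subunit of the membrane arm, measured 27.0, 24.6 and 25.5 FPKM untreated and 35.2, 35.1 and 33.5 with LPS. Its groups were far apart for their spread (1.30-fold, log2 fold change 0.38 ± 0.062, edgeR adjusted p = 0.00201). Ndufa11, another subunit of the membrane arm, whose promoter holds the overlapping NRF1 motifs, measured 21.6, 21.1 and 21.8 FPKM untreated and 25.4, 28.9 and 27.5 with LPS (1.22-fold, edgeR adjusted p = 0.00357). Ndufb6 and Ndufa12 were also called, at log2 fold changes of 0.27 and 0.26, but lost the call in 6 and 4 of the 20 alternatives. The most abundant nuclear member of complex I was Ndufb8, at 42.6 ± 4.57 FPKM untreated and 49.0 ± 3.22 with LPS, with an edgeR adjusted p of 0.193. Ndufs1, Ndufv2, Ndufa13 and Ndufb9 had log2 fold changes between -0.07 and 0.

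Complex II, succinate dehydrogenase, joins the citric acid cycle to the chain, and 1 of its 4 genes was called. Sdhd, a membrane anchor, measured 21.9, 21.2 and 21.2 FPKM untreated and 23.6, 27.3 and 26.8 with LPS (1.17-fold, edgeR adjusted p = 0.0195), and lost the call in 5 of 20 alternatives. Sdhc, the other anchor, ran from 48.0 to 49.7 FPKM untreated and from 53.8 to 56.7 with LPS, with no overlap (log2 fold change 0.13, edgeR adjusted p = 0.0508). Sdha, the flavoprotein, had a log2 fold change of 0.13 (edgeR adjusted p = 0.056). Sdhb, the iron-sulfur subunit, had one of -0.08 (edgeR adjusted p = 0.204), and was called lower once the length trend was removed, at -0.16. The anchors and Sdha separated upward by group, as did 32.8% of all tested genes, and Sdhb did not.

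Complex III, the cytochrome bc1 complex, passes electrons from ubiquinol to cytochrome c. Of its 7 nuclear genes 3 were higher (42.9%) and 1 lower, against 20.1% and 19.0% of all tested genes. Uqcrh, the hinge protein beside cytochrome c1, measured 21.3, 18 and 17.7 FPKM untreated and 24.6, 28.1 and 25.2 with LPS. This was the largest rise among members outside complex IV that are not copies (1.32-fold, log2 fold change 0.40 ± 0.088, edgeR adjusted p = 0.00723). Uqcrc1, a core protein, and Uqcrfs1, the Rieske iron-sulfur protein, were higher by 1.14-fold and 1.13-fold. Uqcrc1 lost the call in 4 and Uqcrfs1 in 3 of the 20 alternatives. Uqcrb, which binds ubiquinone, was lower, from 17.9, 17.8 and 20 FPKM to 17, 17.1 and 15.6. Its groups did not overlap (log2 fold change -0.21 ± 0.07, edgeR adjusted p = 0.0403), but the call was lost in 10 of 20 alternatives, 5 of which left out 1 library. Uqcrq was the most abundant nuclear member of the complex, at 74.4 ± 2.33 FPKM untreated and 82.8 ± 6.71 with LPS (edgeR adjusted p = 0.25).

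Complex IV, cytochrome c oxidase, hands the electrons to oxygen. Of its 14 tested nuclear genes 8 were higher (57.1%, against 20.1% of all tested genes) and 1 lower. Their median log2 fold change was 0.23. Ndufa4 and Ndufa4l2 were counted here, since Ndufa4 is known as a subunit of this complex despite its name. Among subunits found in most tissues, Cox6b1 measured 95.1, 86.3 and 85.7 FPKM untreated and 112, 110 and 110 with LPS (1.2-fold, edgeR adjusted p = 0.00383). Cox7a2, Cox7b, Cox5a, Cox6c and Ndufa4 were higher by 1.15-fold to 1.23-fold. Cox6a1, the most abundant nuclear member of the complex, averaged 169 ± 5.42 FPKM untreated and 189 ± 10.8 with LPS and was not called (edgeR adjusted p = 0.137). Without LPS replicate 2 the complex kept 3 higher calls, and with the length trend removed 1. In those fits 15.3% and 17.3% of all tested genes were called higher.

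Isoforms of complex IV held the 2 largest changes. Cox4i2 (chr3:141228443-141239331), the alternative form of subunit 4 that is known from lung and from cells in low oxygen, measured 14.6, 9.82 and 7.10 FPKM untreated and 25.1, 30.2 and 29.1 with LPS. Its groups were well apart, with untreated replicate 1 the highest control (2.59-fold, log2 fold change 1.37 ± 0.22, edgeR adjusted p = 0.00181). Leaving out each library in turn gave folds from 2.24 to 3.21, the highest without untreated replicate 1. Cox4i1, the common form, went from 46.1, 47.2 and 48.4 to 55.2, 57.7 and 54.5 FPKM (1.14-fold, edgeR adjusted p = 0.0112). Cox4i2 thus made up 24.0%, 17.2% and 12.8% of the FPKM of the pair in untreated libraries and 31.2%, 34.4% and 34.8% with LPS.

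Cox6a2 (chr1:182788528-182789274), the heart and skeletal muscle form of subunit 6a, went the other way at a low level. It measured 3.47, 2.79 and 3.36 FPKM untreated and 0.767, 0.736 and 0.864 with LPS, so it entered the test through the untreated libraries alone. The log2 fold change was -2.06 ± 0.21 (4.16-fold lower, edgeR adjusted p = 0.000246), and 4.0-fold to 4.41-fold lower with any 1 library left out. Beside the common form Cox6a1, it made up 1.86% ± 0.199 of the pair's FPKM untreated and 0.417% ± 0.0491 with LPS (n = 3 each).

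Ndufa4l2, the paralog of Ndufa4 that is induced by low oxygen in other cells, read 12.1, 4.60 and 5.44 FPKM untreated and 11.1, 12.6 and 11.1 with LPS. Untreated replicate 1 lay among the LPS libraries, so the groups overlapped (log2 fold change 0.61 ± 0.31, edgeR adjusted p = 0.159). Without that library the log2 fold change was 1.16 ± 0.13 (2.23-fold, edgeR adjusted p = 2.73e-05), the only 1 of the 20 alternatives that called the gene. With any other library left out it was 0.37 to 0.64 (edgeR adjusted p from 0.232 to 0.369). Ndufa4l2 made up 45.9%, 23.5% and 26.2% of its pair with Ndufa4 in untreated libraries and 39.4%, 40.6% and 39.0% with LPS. Ndufa4l2 overlaps Shmt2 on the opposite strand, and whether the counting used strand is unknown. Cox7a1, the muscle form of subunit 7a, stayed between 0.365 and 0.568 FPKM and was not tested, beside Cox7a2 at 54.9 ± 3.78 untreated and 70.2 ± 7.64 with LPS. Cox7a2l, a factor of supercomplex assembly, had a log2 fold change of 0.04 (edgeR adjusted p = 0.585).

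**Figure D4:**
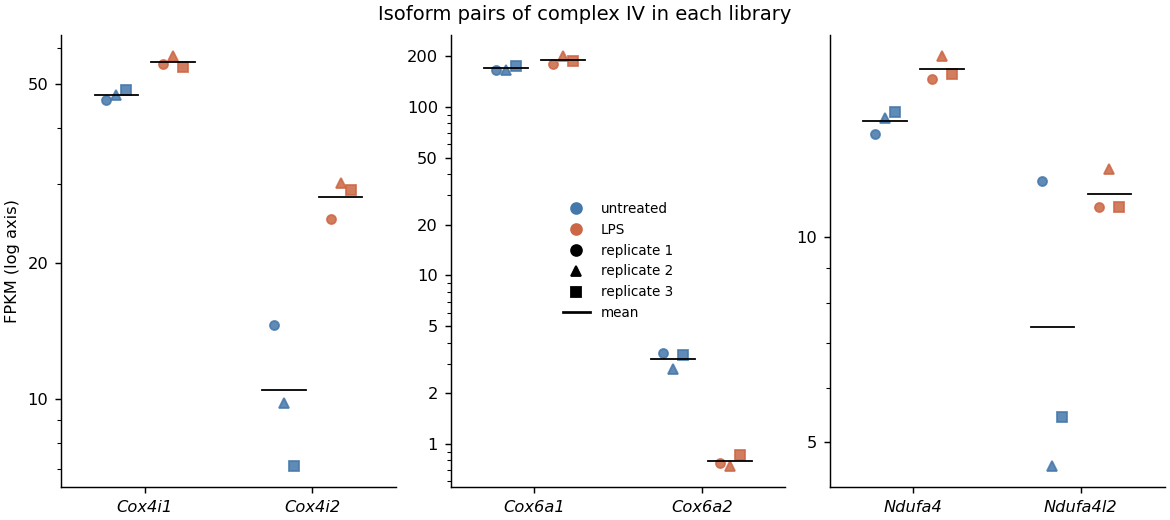
FPKM on a log axis of 3 isoform pairs of complex IV in each library, with group means as lines. Cox4i2 separates the groups upward (7.10 to 14.6 against 25.1 to 30.2), Cox6a2 downward (2.79 to 3.47 against 0.736 to 0.864), and Ndufa4l2 overlaps through untreated replicate 1.

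Complex V turns the proton gradient into ATP. Of its 19 tested nuclear members 7 were higher (36.8%, against 20.1% of all tested genes), with a median log2 fold change of 0.18. In the catalytic F1 part, 3 of 5 genes were called. Atp5f1a, the alpha subunit, measured 128, 128 and 125 FPKM untreated and 155, 154 and 154 with LPS. Replicates of each group agreed closely (1.18-fold, log2 fold change 0.23 ± 0.037, edgeR adjusted p = 0.00153). Atp5f1b, the catalytic beta subunit, was the most abundant nuclear member, at 257, 267 and 265 FPKM untreated and 312, 324 and 300 with LPS (1.15-fold, edgeR adjusted p = 0.0079). Atp5f1d, the delta subunit of the stalk, went from 35.5, 35.3 and 35.0 to 42.2, 46.7 and 42.8 FPKM (1.2-fold, edgeR adjusted p = 0.00328). Atp5f1c, the gamma subunit, was not called (log2 fold change 0.12, edgeR adjusted p = 0.0531).

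In the membrane part, Atp5mc2 and Atp5mc3 encode the same proton-carrying c subunit behind different targeting peptides. Atp5mc2 averaged 155 ± 2.85 FPKM untreated and 184 ± 8.0 with LPS, and Atp5mc3 40.3 ± 1.34 and 49.4 ± 2.73 (n = 3 each). Both were called, by 1.15-fold and 1.18-fold, and Atp5mc3 kept a near constant share of the pair, 20.6% ± 0.319 untreated and 21.2% ± 1.38 with LPS. Atp5mf and Atp5pd were also higher, by 1.19-fold and 1.15-fold. Apart from Atp5f1a and Atp5f1d, the complex V calls were lost when the length trend was removed, Atp5f1b among them (log2 fold change 0.10, edgeR adjusted p = 0.113), while Atp5f1c was then called higher (0.19, edgeR adjusted p = 0.0142). Atp5if1, the inhibitor that blocks ATP hydrolysis by the complex, ran from 72.2 to 75.9 FPKM untreated and from 80.8 to 95.7 with LPS (log2 fold change 0.18, edgeR adjusted p = 0.0661).

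Atp5f1e, the epsilon subunit, read 53.1, 51.2 and 49.3 FPKM untreated and 48.4, 59.6 and 0 with LPS. The 0 belongs to LPS replicate 3 alone, while its neighbour genes were counted there. The log2 fold change was -0.56 ± 0.97 (edgeR adjusted p = 0.683), and 0.03 ± 0.13 without that library (adjusted p = 0.891).

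The 13 mitochondrial genes stood far above the nuclear ones per length. Their lowest value, 324 FPKM for Mt-nd3, was about that of the highest nuclear gene, Atp5f1b, at its peak. By mean FPKM the order began with Mt-co1 (7550), Mt-co3 (3070), Mt-cyb (2290) and Mt-co2 (2150), went on with Mt-atp6 (1970), Mt-atp8 (1940), Mt-nd4 (1420), Mt-nd4l (1250), Mt-nd2 (921), Mt-nd1 (863) and Mt-nd5 (737), and ended with Mt-nd6 (513) and Mt-nd3 (379). Mt-co1 was 19.9 times Mt-nd3. The order was the same in every library except that Mt-cyb and Mt-co2 changed places, as did Mt-atp6 and Mt-atp8. Mt-atp8 and Mt-atp6 overlap by 43 bases, Mt-nd4l and Mt-nd4 by 7, Mt-atp6 and Mt-co3 by 1, and Mt-nd5 and Mt-nd6 by 23 on opposite strands, so reads of these neighbours may be shared.

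Mt-nd3, Mt-cyb and Mt-co1 were called higher. Mt-nd3, a core subunit of complex I, measured 376, 325 and 324 FPKM untreated and 410, 439 and 399 with LPS (1.18-fold, log2 fold change 0.24 ± 0.066, edgeR adjusted p = 0.0223). Mt-cyb, cytochrome b of complex III, measured 2180, 2070 and 2040 untreated and 2720, 2460 and 2290 with LPS (1.15-fold, edgeR adjusted p = 0.0392). Mt-co1, the catalytic subunit of complex IV, measured 7400, 6760 and 6920 untreated and 8550, 8040 and 7660 with LPS (1.11-fold, edgeR adjusted p = 0.0477). Groups did not overlap in these 3. The calls were lost in 5, 5 and 7 of 20 alternatives, and all 3 were lost without untreated replicate 2 or 3, without LPS replicate 1 or 2, and with the length trend removed, where Mt-atp6 and Mt-co2 were called lower.

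The other 10 mitochondrial genes were not called. Mt-nd6, the only one on the light strand, had a log2 fold change of 0.22 ± 0.10 (edgeR adjusted p = 0.106), and Mt-nd5 on the opposite strand one of 0.13. Mt-nd1, Mt-nd2, Mt-nd4, Mt-nd4l, Mt-co2 and Mt-co3 lay between -0.01 and 0.07. Mt-atp6 and Mt-atp8, which share 1 transcript, lay at -0.06 and -0.08, below the complex V nuclear median of 0.18; the difference was not tested.

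Ratios between mitochondrial genes set aside shifts that all of them share in a library. Mt-co1 over Mt-co2 was 3.28, 3.38 and 3.34 untreated and 3.81, 3.69 and 3.60 with LPS. Mt-co3 over Mt-atp6 was 1.48, 1.49 and 1.49 untreated and 1.61, 1.67 and 1.62 with LPS, and both genes are cut from 1 precursor. Mt-cyb over Mt-atp6 was 1.06, 1.07 and 1.05 untreated and 1.36, 1.29 and 1.17 with LPS. The groups did not overlap in these ratios, but the pairs were chosen after their values were seen and carry no test.

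**Figure D5:**
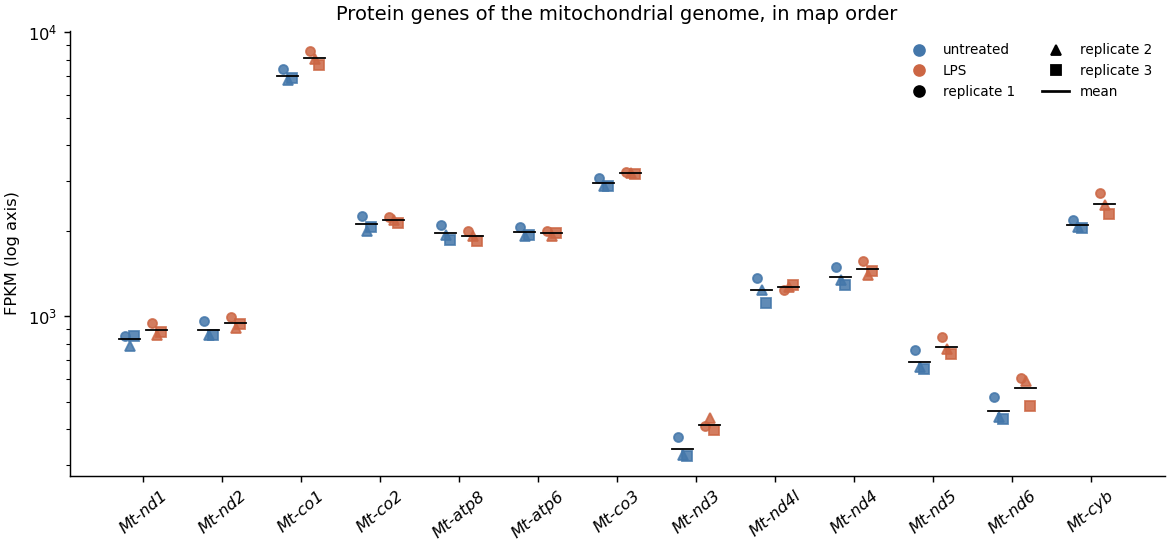
FPKM on a log axis of the 13 mitochondrial protein genes in map order, with 3 libraries and the mean for each group. Mt-co1 averages 7550 and Mt-nd3 379, and the groups separate in Mt-nd3, Mt-cyb and Mt-co1 among others but overlap in Mt-atp6 and Mt-atp8.

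Other mitochondrial gene lists were read beside the subunits, against the same 20.1% and 19.0% of all tested genes called higher and lower. With the length trend removed the share called higher was 17.3%, and without LPS replicate 2 it was 15.3%. Of 39 tested assembly factors 3 were higher and 2 lower (median log2 fold change 0.038). The largest was Sdhaf1, which helps insert the iron-sulfur clusters of Sdhb, at 10.7 FPKM untreated and 19.3 with LPS (1.74-fold, edgeR adjusted p = 0.0004). Uqcc2 and Pet100, assembly factors of complexes III and IV, were higher by 1.32-fold and 1.31-fold, and Ndufaf4 and Uqcc1 were lower. The Uqcc2 call was lost in 5 and the Pet100 call in 7 alternatives, the removal of the length trend among them. In that fit, and in the one without LPS replicate 2, 1 assembly factor was higher.

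Of 22 tested electron carriers and coenzyme Q genes 5 were higher and 2 lower (median log2 fold change 0.086). Dhodh, the pyrimidine synthesis enzyme that reduces quinone, went from 1.76 to 4.07 FPKM (2.23-fold, edgeR adjusted p = 0.000143). Sqor, which oxidises sulfide, was higher by 1.77-fold (edgeR adjusted p = 0.00037), and Gpd2, of the glycerol phosphate shuttle, by 1.60-fold (edgeR adjusted p = 0.00309). Etfdh, which passes electrons from fatty acid oxidation to quinone, was lower (log2 fold change -0.17, edgeR adjusted p = 0.0275), as was Coq10b (-0.27). With the length trend removed 3 genes of the list were higher. The levels of the first 3 are low to moderate beside those of the subunits, whose tested nuclear median was 25.5 FPKM untreated.

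Of 27 tested genes of the citric acid cycle and pyruvate entry 7 were higher and 1 lower (median 0.026). Pdk1 and Pdk3, kinases that shut off pyruvate dehydrogenase, were higher by 1.77-fold and 1.39-fold, and Idh2, an NADP-linked isocitrate dehydrogenase, by 1.29-fold. Of 16 tested fatty acid oxidation genes 8 were higher and 1 lower (median 0.20), with Echs1, enoyl-CoA hydratase, at 1.74-fold and Acaa2, a thiolase, at 1.30-fold, while Hadhb, a subunit of the trifunctional protein, was lower at 0.722 of the untreated level. With the length trend removed 4 of these genes were higher, and without LPS replicate 2 there were 3. Of 8 tested adenine nucleotide and phosphate carriers, uncouplers and kinases 4 were higher (median 0.24), among them Ak4 at 2.06-fold, Ucp2 at 1.84-fold and Slc25a5, an ADP/ATP carrier, at 1.24-fold.

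Of 30 tested genes that maintain and express mitochondrial DNA, 1 was higher (Hsd17b10, a part of mitochondrial RNase P, 1.30-fold) and 3 were lower, at a median of -0.072 on the log2 scale. The lower ones were Polg, the mitochondrial DNA polymerase, Pnpt1, an RNA exonuclease, and Lrpprc, which stabilises mitochondrial mRNAs, at log2 fold changes of -0.19, -0.32 and -0.15. Of 17 tested nuclear regulators 1 was higher and 5 lower (median -0.068). Pprc1, a coactivator related to PGC-1, went from 12.4 to 8.76 FPKM (log2 fold change -0.55, edgeR adjusted p = 0.000319), and Myc from 37.0 to 27.4 (-0.48, edgeR adjusted p = 0.00146), while Thra, a thyroid hormone receptor, was higher by 1.40-fold. Of 34 tested import and mass genes 6 were higher and 4 lower (median 0.038), with Hspa9, the import motor chaperone, lower at -0.51 and Micos10 and Timm17b higher at 0.39 and 0.35.

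Hypoxia-linked mitochondrial genes, a list that holds Cox4i2 and Ndufa4l2, had 9 of 13 tested genes higher and 1 lower, with a median log2 fold change of 0.61. Egln3, one of the 9, ran from 0 to 0.29 FPKM untreated and from 1.41 to 1.57 with LPS. It thus entered the test through the LPS libraries alone. Sod2, also of the 9, measured 59.6, 14.4 and 14.3 FPKM untreated and 260, 267 and 238 with LPS. Higd1a, which binds complex IV, measured 18.2, 12.5 and 12.5 FPKM untreated and 26.0, 31.1 and 26.5 with LPS. Bnip3, a mitophagy receptor, measured 50.4, 28.6 and 26.7 untreated and 73.9, 71.0 and 67.3 with LPS, and Hif1a 131, 78.3 and 78.7 untreated and 147, 140 and 143 with LPS. Untreated replicate 1 was the highest control in each, as it was for Cox4i2 and Ndufa4l2. Ak4 and Echs1, of other lists, had that order too, and its cause was not tested. Among the controls, that library also lay nearest the LPS libraries on the first principal component of all tested genes. Lonp1, a matrix protease, was lower (log2 fold change -0.19, edgeR adjusted p = 0.0081).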

How the data were processed

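Poly(A)-selected, strand-marked paired-end RNA sequencing was analysed from 1 deposited table of 19266 rat genes in 6 libraries. The submitters' processing notes name the build mRatBN7.2 and the tools edgeR, DESeq2, StringTie 2.1.6, HISAT2 2.2.1 and cutadapt 1.9, without their roles. Strand use in counting, the annotation release and how counts were derived are not stated in them. FPKM columns, per the file headers, are the authors' fragments per kilobase per M fragments. The deposited counts are whole but were taken as estimated counts: 31.9% to 32.9% of values from 1 to 40 are multiples of 4, where 25% would be by chance. Most are not, so the 4 units per fragment behind the fragment totals are an assumption. The edgeR fit used the counts undivided. Divided by 4, they also gave 28 members higher (29.8%, against 20.2% of all tested genes). Rounding changed nothing. Totals, 77.4 to 82 M units, differed little, and precision was limited by the 3 libraries per group.

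Genes with FPKM of at least 1 in at least 3 libraries were fitted together with edgeR 4.0.16 (quasi-likelihood test, trimmed-mean factors, group as the only term, R 4.3.3). The fit was also run on simulated counts in which every gene had the same dispersion. That run cannot settle how well small changes are called in these data. Benjamini-Hochberg adjustment covered all 11559 tested genes, threshold 0.05. The standard error is the size of the log2 fold change over the square root of F. Library shares and ratios have no test. Each library's median compares scaled counts with the untreated mean.

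The members, gene lists and tests were chosen with earlier results of these data known. Named genes are all mitochondrial members, the Sdh genes, the isoform pairs, Atp5if1, per complex up to 4 called members in each direction with mean FPKM of at least 1 and the most abundant and lowest tested one, and up to 3 called genes per list. Others (Atp5f1e, Ndufs7, Ndufs8 and further genes of a count or list) were named after their values were seen. Alternatives were limma 3.58.1, DESeq2 1.42.0, other scalings and filters, a replicate block, each library left out, and, chosen after seeing the data, robust dispersion and removal of a length trend (loess, span 0.5). Promoters are from RefSeq, GRCr8. Protein sequences were not used here. Some genes are not reported here.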

Additional observations from a re-analysis of the deposited data

How the results depend on the processing

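The count of members called higher, 28, became 46 on total counts, 45 with limma on log2(FPKM + 1), 46 with log2(FPKM + 0.1) and 8 with the length trend removed. It ran from 13 (without LPS replicate 2) to 35 (without untreated replicate 1) when 1 library was left out, and was 14 without untreated replicate 2. Of all tested genes 15.3%, 22.8% and 15.9% were called higher in these 3 fits, against 13.8%, 37.2% and 14.9% of tested members. It lay between 26 and 32 in the other settings. The count called lower, 2, was 1 on total counts, with either limma fit, with no filter on low values, at FPKM of at least 5 and with the replicate block, 1 to 2 with 1 library left out, and 6 with the length trend removed. The nuclear median log2 fold change, 0.15, was 0.21 on total counts and with limma on log2(FPKM + 0.1), and 0.063 with the length trend removed, where the mitochondrial median was -0.082. Mt-co2 reversed there, to -0.15 (edgeR adjusted p = 0.029) from 0.00. Over all tested genes, higher calls were 51.3% of calls, and 62.7% on total counts, 63.3% with limma on log2(FPKM + 1) and 44.7% with the length trend removed. Beyond the construction of each fit, the cause of these shifts was not tested. Whether replicate numbers pair the libraries is not given in the labels. Same-numbered deviations correlated weakly, at 0.0362, 0.0836 and 0.0938, but each library correlated best with its own number. With the replicate number as a block, 30 members were higher and 1 lower, and 4184 genes were called against 4524. Among low members, Cox7a1 at 0.365 to 0.568 FPKM and Ndufa3 at 0.724 to 1.33 did not pass the filter and were not tested.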

Other observations

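Of the 76 nuclear members that are not copies or pseudogene-named, 25 of 74 tested were higher with LPS and 2 lower, and 51 separated the groups upward; over all tested genes 20.1% were called higher, 19.0% lower, and 32.8% separated upward. Copies gave values of their own: Atp5mpl-ps1 measured 5.05, 5.34 and 11.8 FPKM untreated and 6.19, 5.47 and 4.94 with LPS, with the high value in untreated replicate 3 alone, and its log2 fold change was -0.47 with all libraries and 0.05 without that one. The 10 nuclear members with an implied length of up to 500 bases had a median log2 fold change of 0.13, where the 338 tested genes of that length had one of -0.043 and 5.62% of them were called higher. By their annotated spans, 7 nuclear members overlap another gene on the same strand and 26 overlap 1 on the opposite strand.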
